A study of Mus musculus with 12 samples.

Results

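Kidney tubule cells of Setd2 knockout mice were compared with those of wild-type mice over all genes of the deposited count table. The knockout group, called SETD2-KO, carried the Ksp1.3/cre transgene and 2 floxed Setd2 alleles (Ksp1.3/cre; Setd2fl/fl). The wild-type group, called WT, carried the floxed Setd2 alleles without Cre (Setd2fl/fl), so the floxed allele was common to both groups. Each group had 3 mice and 3 libraries, all of strain C57BL/6, which are 6 of the 12 libraries of the series. The labels give no age or sex. The cells were primary tubular epithelial cells isolated from the kidney cortex, and poly(A) RNA was sequenced from both ends in strand-specific libraries. The table holds 44792 gene symbols, of which 15850 had enough counts to be tested with all 6 libraries and 16154 without SETD2-KO 3.

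Setd2 encodes the enzyme that adds the third methyl group to lysine 36 of histone H3. The mark is laid down along transcribed gene bodies as the enzyme travels with elongating RNA polymerase II, and it is read by factors that act in splicing, DNA repair and the suppression of transcription starts within genes. SETD2 is one of the tumour suppressor genes of clear cell renal carcinoma. The Ksp1.3 promoter is that of Cdh16, which encodes the cadherin of kidney tubules. Cre under this promoter acts in epithelial cells of the tubules and leaves endothelial, mural and blood cells, and any tubule cell in which Cre stays silent, with the unrecombined allele.

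The promoters of 4 genes on which the results below turn are shown for orientation, read from RefSeq on GRCm38.p6, 5′ to 3′ on the strand of the gene and ending before the first base of both the RefSeq and the deposited gene model. They are Setd2, the targeted gene, Spock3, which was called lower in 1 of 3 fits, Tnc, which lay higher in SETD2-KO, and Slco1a1, which lay lower. Capitals mark GGGCGG, the core of the GC box, on either strand. Of 32851 RefSeq promoters, 32.7% held at least 1 such match in the 250 bases before the start. Overlapping matches were counted separately, which gave 7 in Setd2, 1 in Tnc and 0 in Slco1a1, each over 250 bases. The window shown for Spock3 has only 108 bases and held 0, which cannot be set against that share.
Setd2, chr9:110532347-110532596, + strand: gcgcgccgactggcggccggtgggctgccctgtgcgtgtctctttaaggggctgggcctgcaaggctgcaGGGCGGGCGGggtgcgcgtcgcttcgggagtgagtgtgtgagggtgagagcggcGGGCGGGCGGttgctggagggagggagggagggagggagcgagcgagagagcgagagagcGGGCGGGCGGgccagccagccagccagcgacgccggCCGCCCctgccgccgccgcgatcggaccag
Spock3, chr8:62950982-62951089, + strand: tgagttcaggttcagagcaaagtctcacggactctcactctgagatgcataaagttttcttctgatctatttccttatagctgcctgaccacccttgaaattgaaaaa
Tnc, chr4:64047016-64047265, - strand: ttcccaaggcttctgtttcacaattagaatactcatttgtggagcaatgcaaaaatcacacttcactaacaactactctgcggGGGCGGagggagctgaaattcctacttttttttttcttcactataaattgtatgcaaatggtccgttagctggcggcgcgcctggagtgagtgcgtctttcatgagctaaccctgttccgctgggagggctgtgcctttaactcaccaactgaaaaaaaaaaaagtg
Slco1a1, chr6:141946963-141947212, - strand: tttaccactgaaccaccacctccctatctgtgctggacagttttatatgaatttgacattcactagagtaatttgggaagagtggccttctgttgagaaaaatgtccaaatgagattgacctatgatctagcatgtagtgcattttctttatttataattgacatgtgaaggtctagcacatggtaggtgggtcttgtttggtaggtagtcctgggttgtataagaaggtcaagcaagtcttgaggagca

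The libraries held 32817485, 41608501 and 16657538 counts in SETD2-KO 1, 2 and 3, and 32403608, 22997852 and 44227191 counts in WT 1, 2 and 3. SETD2-KO 3 stood apart from the other 5. Its mitochondrial ribosomal RNA rows summed to 1.05 CPM (counts scaled to a common library total, here with TMM factors), against 14760 and 17980 CPM in SETD2-KO 1 and 2 and 18880, 20800 and 18870 CPM in WT 1, 2 and 3. At least 10 CPM in SETD2-KO 3 together with under 1 CPM in each of the other 5 libraries was found for 283 genes. An overlap with another gene was present for 89% of the 283, and for 34.6% of the 7619 genes at 10 CPM or more in all 6 libraries. Xist, the RNA of the inactive X chromosome, had 827 CPM in SETD2-KO 3 and at most 0.369 CPM in the other 5, and the Y-linked Ddx3y had 0 CPM in SETD2-KO 3, against 49.9 and 68.1 CPM in SETD2-KO 2 and 1 and 56.0 to 80.8 CPM in WT. The other 5 libraries fell into a pair of sets by the 18S ribosomal RNA row, with 359 CPM in SETD2-KO 1 and 328 and 412 CPM in WT 1 and 2, against 5792 CPM in SETD2-KO 2 and 6855 CPM in WT 3. Between these 18S sets, 898 of 16154 genes (5.56%) differed (edgeR's quasi-likelihood test, Benjamini-Hochberg adjusted). For these reasons each result is given for SETD2-KO 1 and 2 against WT, with the levels of SETD2-KO 3 beside those of the other libraries. The log2 fold change of the fit of all 6 libraries is added for many genes and lists where it had the other sign or differed by more than 1.5 times. It is not added for all of them, so a missing value does not mean that the fits were alike. On the first principal component, which held 77.6% of the variance, SETD2-KO 3 stood alone, and the second (12.4%) separated the 18S sets.

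**Figure D1:**
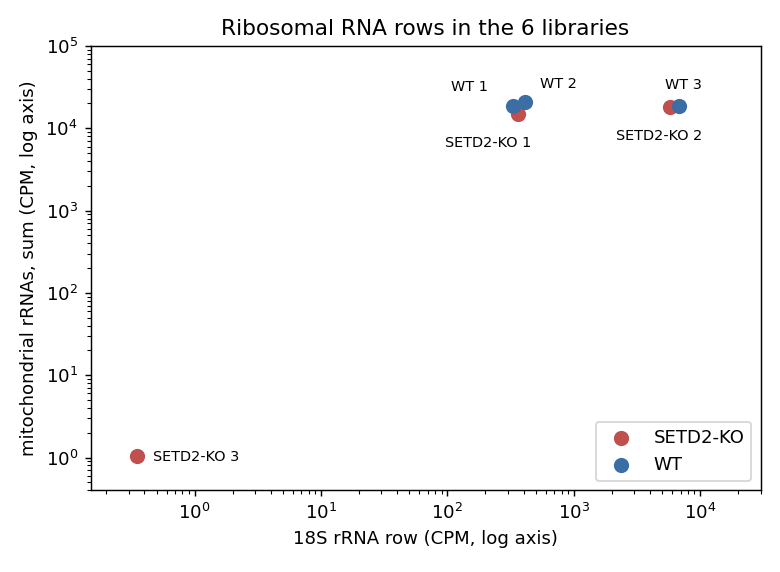
Sum of the mitochondrial ribosomal RNA rows (vertical, CPM, log axis) against the 18S ribosomal RNA row (horizontal, CPM, log axis), 1 point per library. SETD2-KO 3 lies at 1.05 and 0.349 CPM, and the other 5 libraries hold at least 14760 CPM of mitochondrial ribosomal RNA and fall into a low and a high 18S set, each with both genotypes.

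The counts over the whole Setd2 gene (chr9:110532597-110618633, + strand) differed little between the genotypes. Setd2 had 50.04, 67.5 and 57.8 CPM in SETD2-KO 1, 2 and 3, against 59.6, 67.4 and 73.4 CPM in WT 1, 2 and 3. The groups overlapped: SETD2-KO 2 reached the level of WT 2. Setd2 gave a log2 fold change of -0.19 ± 0.17 SE without SETD2-KO 3 and -0.19 ± 0.15 SE with it (SETD2-KO over WT), which did not pass edgeR's quasi-likelihood test (Benjamini-Hochberg adjusted p = 1 and 0.889). The labels do not name the floxed exons, and a count over all exons does not check a deletion of a few of them. Cdh16, whose promoter drives Cre, had 1133, 1288 and 698 CPM in SETD2-KO 1, 2 and 3, against 1303, 1043 and 1116 CPM in WT 1, 2 and 3. Its level in SETD2-KO 3 was below all others, and its log2 fold change was 0.06 ± 0.16 SE without that library and -0.15 ± 0.28 SE with it.

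No gene passed an adjusted p of 0.05 in either direction, neither with SETD2-KO 1 and 2 against the 3 WT libraries nor with all 6 libraries (edgeR's quasi-likelihood test, Benjamini-Hochberg adjustment, 0% called each way). The smallest adjusted p was 0.421 without SETD2-KO 3 and 0.664 with it, by edgeR. At an unadjusted p under 0.05 there were 64 genes higher (0.396%) and 103 lower (0.638%) without SETD2-KO 3, or 1.03% in both directions, and 290 higher (1.83%) and 43 lower (0.271%) with it, or 2.1%. DESeq2 called 0 genes higher and 3 lower without SETD2-KO 3, and 4 higher and 2 lower with it, while limma-voom called 0 each way in both. The 4 called higher by DESeq2 had counts in SETD2-KO 3 alone. A further edgeR fit of SETD2-KO 1 and 2 against WT with a term for the 18S sets, added after the data had been seen, called 0 genes higher and 2 lower (0.0124%), with 225 genes higher (1.39%) and 221 lower (1.37%) at an unadjusted p under 0.05, or 2.76%. Changes are relative to the median gene: scaling by total counts alone in place of TMM moved the median log2 fold change of all genes to 0.19 with all 6 libraries and 0.08 without SETD2-KO 3.

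The 2 genes called lower in the fit with the 18S term were Spock3 and Npy6r, and both stood apart in all 6 libraries, SETD2-KO 3 included. Spock3 (chr8:62951090-63357101, + strand) encodes testican-3, a secreted proteoglycan of the extracellular matrix. Spock3 counts were 7, 9 and 4 in SETD2-KO 1, 2 and 3 and 81, 50 and 69 in WT 1, 2 and 3, or 0.210, 0.224 and 0.199 CPM in SETD2-KO 1, 2 and 3, against 2.66, 2.31 and 1.67 CPM in WT 1, 2 and 3. Every SETD2-KO library lay far below every WT library, and the SETD2-KO libraries were close to each other. Spock3 fell by 3.23 ± 0.37 SE on the log2 scale with the 18S term (edgeR, Benjamini-Hochberg adjusted p = 0.0368). Its log2 fold change was -3.33 ± 0.40 SE without the term and -3.36 ± 0.33 SE with all 6 libraries, where edgeR's adjusted p was 0.421 and 0.664, and over the 13 alternatives of the fit without SETD2-KO 3 the adjusted p ranged between 4.53e-09 and 1. Within the 18S sets, the Spock3 difference was -3.21 between SETD2-KO 1 and WT 1 and 2, and -2.59 between SETD2-KO 2 and WT 3.

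Npy6r (chr18:44270127-44277700, + strand), a mouse receptor of the neuropeptide Y family, had counts of 11, 20 and 13 in SETD2-KO 1, 2 and 3 and 74, 68 and 127 in WT 1, 2 and 3, or 0.330, 0.497 and 0.647 CPM in SETD2-KO 1, 2 and 3, against 2.43, 3.14 and 3.07 CPM in WT 1, 2 and 3. The groups were apart here too, and the 3 WT libraries were close to each other. Npy6r fell by 2.83 ± 0.32 SE on the log2 scale with the 18S term (edgeR, Benjamini-Hochberg adjusted p = 0.0368, between 3.55e-08 and 1 over the alternatives of the fit without SETD2-KO 3). The log2 fold change was -2.78 ± 0.35 SE without the term and -2.56 ± 0.35 SE with all 6 libraries. Within the 18S sets it was -2.84 between SETD2-KO 1 and WT 1 and 2, and -2.48 between SETD2-KO 2 and WT 3. Both genes were at a few CPM even in WT, and fewer cells of a type that expresses a gene and less RNA of it per cell cannot be told apart in bulk RNA.

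The levels in SETD2-KO 1 and 2 lay above those of all 3 WT libraries for 995 genes (6.16%) and below them for 944 (5.84%). With SETD2-KO 3 included, the groups did not overlap for 557 genes higher (3.51%) and 443 lower (2.79%). From the genes that did not overlap without SETD2-KO 3, averaged at least 1 on the log2 CPM scale and had the same sign in SETD2-KO 3, the 12 with the smallest p in each direction are described, leaving out 3 loci with no gene name. None of them passed edgeR's adjusted test, so the values below are levels and differences and not calls.

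On the higher side, the genes described include matrix and smooth muscle genes, a dehydrogenase and a secreted immunoglobulin-domain protein. Vstm2a, the secreted protein, had 14.1, 13.6 and 16.8 CPM in SETD2-KO 1, 2 and 3, against 6.93, 8.53 and 8.80 CPM in WT 1, 2 and 3, with a log2 fold change of 0.77 ± 0.16 SE. Dhrs7, the dehydrogenase, had 18.2, 17.8 and 18.1 CPM in the SETD2-KO libraries, against 10.3, 10.8 and 12.7 CPM in the WT libraries (0.67 ± 0.15 SE). For both genes the 3 SETD2-KO libraries sat close together and the lowest lay above the highest WT library. Tnc, which encodes tenascin C of the extracellular matrix, had 6.35, 5.37 and 6.92 CPM in the SETD2-KO libraries, against 3.42, 2.40 and 3.26 CPM in the WT libraries (log2 fold change 0.94 ± 0.24 SE). Col1a2, the second chain of type I collagen, had 46.4, 29.7 and 31.2 CPM in the SETD2-KO libraries, against 27.95, 23.3 and 23.1 CPM in the WT libraries (0.61 ± 0.20 SE), and Acta2, the smooth muscle actin, had 27.8, 20.7 and 33.5 CPM in the SETD2-KO libraries, against 16.2, 16.4 and 18.96 CPM in the WT libraries (0.49 ± 0.17 SE). Of these 3, Tnc was the most even within SETD2-KO, while SETD2-KO 1 was the highest for Col1a2 and SETD2-KO 3 for Acta2.

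Pkdcc, a secreted kinase of bone and lung development, had 14.6, 13.9 and 18.2 CPM in the SETD2-KO libraries, against 10.4, 8.53 and 9.84 CPM in the WT libraries (log2 fold change 0.56 ± 0.16 SE). Gldc, the decarboxylase of the glycine cleavage system, had 264, 257 and 265 CPM in the SETD2-KO libraries, against 164, 181 and 219.6 CPM in the WT libraries (0.47 ± 0.15 SE). B3gnt7, a glycosyltransferase, had 4.70, 5.89 and 8.47 CPM in the SETD2-KO libraries, against 3.06, 2.44 and 3.75 CPM in the WT libraries (0.77 ± 0.26 SE). In all of them the lowest SETD2-KO library lay above the highest WT library, and for Gldc the gap between SETD2-KO 2 and WT 3 was smaller than the range within WT. Arsa, the lysosomal arylsulfatase A, had 17.4, 16.2 and 16.1 CPM in the SETD2-KO libraries, against 13.04, 11.99 and 12.8 CPM in the WT libraries (0.40 ± 0.14 SE). Wfdc16, a WAP-domain protein, had 5.03, 5.19 and 4.03 CPM in the SETD2-KO libraries, against 3.42, 3.23 and 2.97 CPM in the WT libraries (0.67 ± 0.21 SE). Both were apart in all 6 libraries. Spag5, which encodes the spindle protein astrin, had 3.45, 2.53 and 11.8 CPM in the SETD2-KO libraries, against 1.58, 1.61 and 1.64 CPM in the WT libraries (0.88 ± 0.27 SE, or 1.87 ± 0.61 SE with SETD2-KO 3), so SETD2-KO 3 stood well above its own group. Aldoc, a glycolytic aldolase whose gene begins 623 bases from Spag5 on chromosome 11, had 9.77, 8.17 and 28.7 CPM in the SETD2-KO libraries, against 7.06, 5.49 and 6.36 CPM in the WT libraries (0.50 ± 0.19 SE, or 1.30 ± 0.51 SE with SETD2-KO 3) and was highest in SETD2-KO 3 as well.

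Shh and Kynu were chosen after their values had been seen, and Trpv6 from the list of distal tubule genes. Trpv6, an apical calcium channel, had 2.07, 2.36 and 2.49 CPM in the SETD2-KO libraries, against 0.657, 0.968 and 1.09 CPM in the WT libraries (1.28 ± 0.32 SE). Most of the other genes of that list did not lie higher: 6 of 16 were above 0 without SETD2-KO 3, with a median log2 fold change of -0.06. On the higher side 2 were apart and on the lower 2, against 6.16% and 5.84% of all genes. The median with all 6 libraries was 0.18, and 13 were above 0. Shh, the hedgehog ligand, had 1.65, 2.09 and 1.69 CPM in the SETD2-KO libraries, against 0.854, 0.784 and 0.895 CPM in the WT libraries (1.13 ± 0.30 SE). Kynu, the kynureninase of tryptophan breakdown, had 19.1, 30.9 and 41.4 CPM in the SETD2-KO libraries, against 11, 8.57 and 18.7 CPM in the WT libraries (0.95 ± 0.33 SE). The groups were apart for Trpv6, Shh and Kynu, although SETD2-KO 1 and WT 3 were nearly level for Kynu.

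The genes described on the lower side include a fatty acid receptor, a carbonic anhydrase and an organic anion transporter. Cd36, the scavenger receptor that takes up fatty acids, had 207, 267 and 151 CPM in SETD2-KO 1, 2 and 3, against 373, 441 and 315 CPM in WT 1, 2 and 3, with a log2 fold change of -0.67 ± 0.19 SE. Car15, a membrane-bound carbonic anhydrase, had 56.7, 47.6 and 60.95 CPM in the SETD2-KO libraries, against 108, 62.6 and 96.1 CPM in the WT libraries (-0.78 ± 0.23 SE). The highest SETD2-KO library lay below the lowest WT library for both genes, narrowly so for Car15. Pzp, a protease inhibitor of the alpha-2-macroglobulin family, had 41.7, 37.9 and 0 CPM in the SETD2-KO libraries, against 77.4, 78.2 and 52.4 CPM in the WT libraries (-0.81 ± 0.19 SE, or -1.38 ± 1.38 SE with SETD2-KO 3). Slco1a1, an organic anion transporter, had 109.6, 116 and 0.149 CPM in the SETD2-KO libraries, against 198, 352 and 163 CPM in the WT libraries (-1.08 ± 0.31 SE, or -1.66 ± 1.45 SE with SETD2-KO 3). Acsm3, a medium-chain acyl-CoA synthetase, had 186, 130.4 and 3.29 CPM in the SETD2-KO libraries, against 301, 563 and 197 CPM in the WT libraries (-1.17 ± 0.41 SE). These 3 were at most 3.29 CPM in SETD2-KO 3 and lower in SETD2-KO 1 and 2 than in any WT library. WT 2 was the highest library for each of them. Slco1a1 and Acsm3 are also in the list of sex-dependent kidney genes read below. The part of sex in their SETD2-KO 3 values was not tested.

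Nrg1, the growth factor neuregulin 1, had 8.30, 9.34 and 12.2 CPM in the SETD2-KO libraries, against 11.5, 15.2 and 12.8 CPM in the WT libraries (-0.58 ± 0.18 SE), and SETD2-KO 3 lay above WT 1. Vsig10, an immunoglobulin-domain membrane protein, had 8.48, 8.02 and 10.4 CPM in the SETD2-KO libraries, against 10.5, 12.5 and 12.7 CPM in the WT libraries (-0.54 ± 0.16 SE), with SETD2-KO 3 and WT 1 nearly level. Tlcd2, a membrane protein with a TLC domain, had 4.52, 4.27 and 1.44 CPM in the SETD2-KO libraries, against 6.96, 7.74 and 5.66 CPM in the WT libraries (-0.63 ± 0.21 SE, or -0.98 ± 0.44 SE with SETD2-KO 3). Hrg, the histidine-rich glycoprotein, had 1.08, 1.47 and 0.0996 CPM in the SETD2-KO libraries, against 3.25, 3.64 and 1.62 CPM in the WT libraries (-1.15 ± 0.41 SE). Both Tlcd2 and Hrg were lowest in SETD2-KO 3. Cd8a, a T cell co-receptor, had 0.360, 0.621 and 1.54 CPM in the SETD2-KO libraries, against 10.2, 9.27 and 0.919 CPM in the WT libraries, so the difference of -3.76 ± 0.99 SE rested on WT 1 and 2, with WT 3 close to the SETD2-KO libraries. Its neighbour Smyd1, a muscle methyltransferase 90500 bases away on chromosome 6, followed the same libraries, with 0.569, 1.12 and 0.299 CPM in the SETD2-KO libraries, against 7.33, 6.45 and 1.04 CPM in the WT libraries (-2.53 ± 0.79 SE). Smyd1 was not chosen by the criteria above, and its groups overlapped, with SETD2-KO 2 just above WT 3. Cr2, the complement receptor CD21, was chosen after its values had been seen and had 1.17, 0.720 and 0.498 CPM in the SETD2-KO libraries, against 2.17, 2.67 and 2.39 CPM in the WT libraries (-1.36 ± 0.33 SE). The list of lymphocyte genes, which holds Cd8a, did not lie lower: 9 of 18 were above 0 without SETD2-KO 3, with a median of 0.06. Of these, 2 were apart on the higher side and 1 on the lower, against 6.16% and 5.84% of all genes. With all 6 libraries the median was 0.13.

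**Figure D2:**
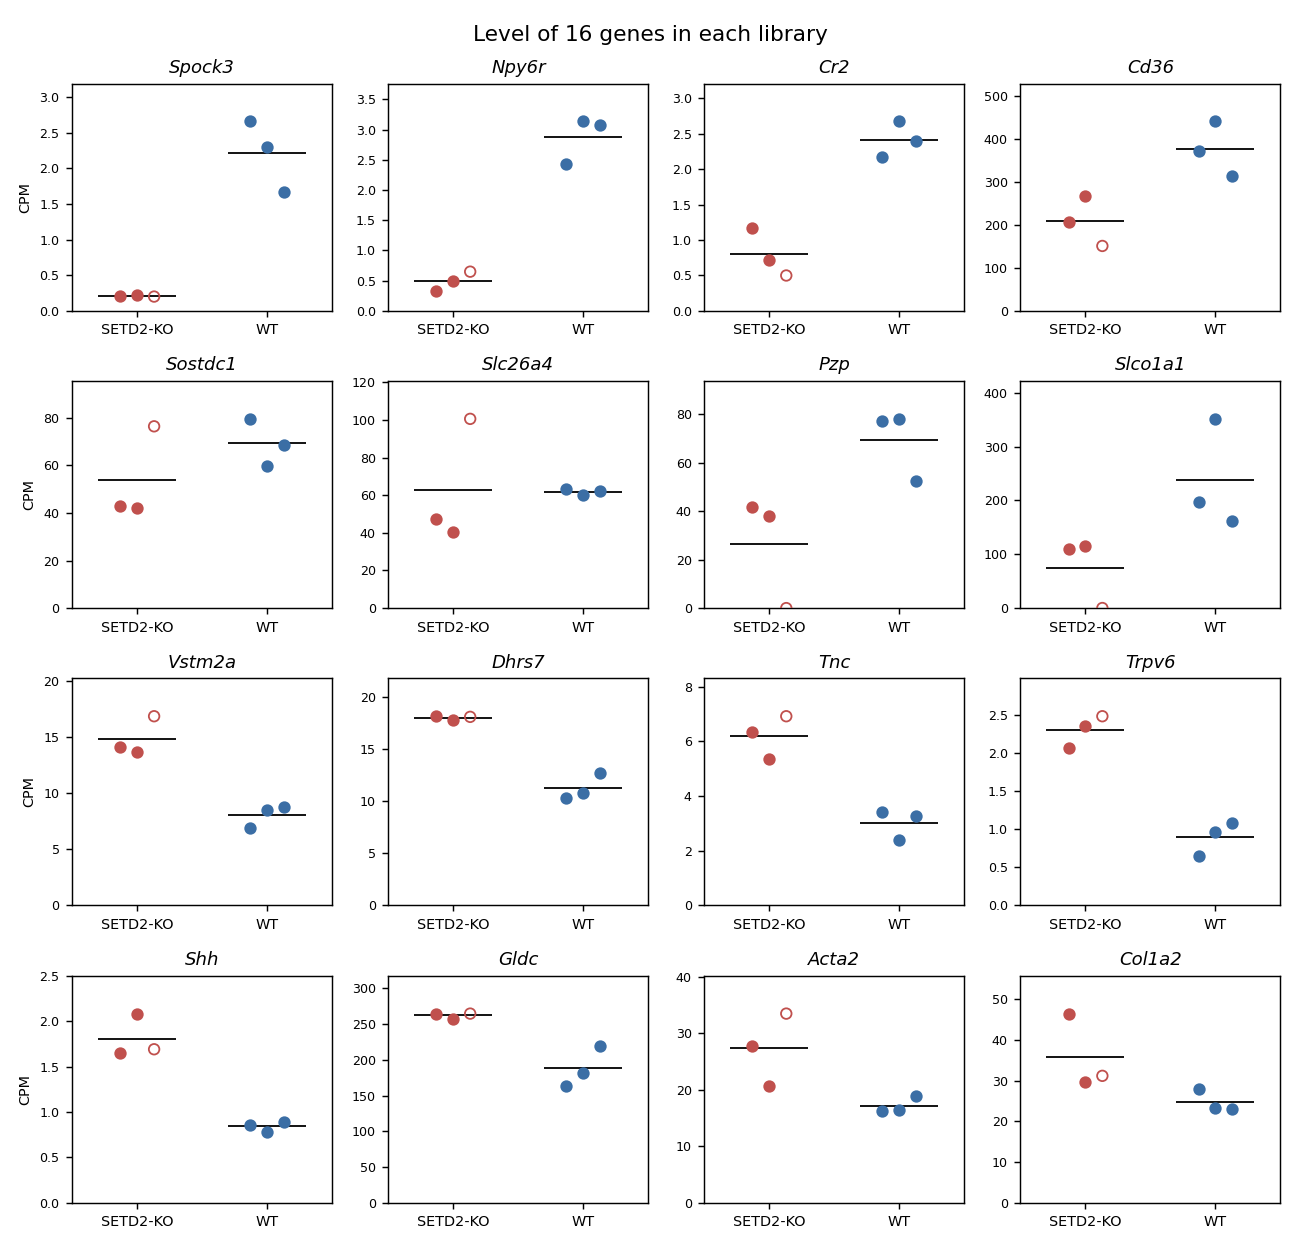
Level of 16 genes in CPM (vertical, linear axes from 0), with SETD2-KO left of WT, 1 point per library, replicates 1 to 3 from left to right, and a bar at the group mean. The open point is SETD2-KO 3. Spock3 and Npy6r are apart in all libraries, while Sostdc1 and Slc26a4 are lower in SETD2-KO 1 and 2 and high in SETD2-KO 3.

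Kidney genes known to differ between male and female mice are given with the sex chromosome genes beside them. Ddx3y was at 0 in SETD2-KO 3, while SETD2-KO 1 and 2 and all WT libraries held it. The list had 24 genes, and without SETD2-KO 3 its median log2 fold change was -0.30, against -0.01 over all 16154 genes, with 4 of 24 above 0 and 4 apart on the lower side (5.84% over all genes). With it the median was -0.52, against 0.01 over all 15850 genes, and 9 of 24 were above 0. The list was not split by the sex in which a gene is higher, so its median has no direction in sex. Slco1a1 and Acsm3, described above, are also in this list. The members described are lower, but Slc7a12, Abcc3 and Akr1c18 had log2 fold changes of 5.60, 5.02 and 3.67 with all 6 libraries. Without SETD2-KO 3 these were -0.30, 0.51 and -0.26. Kap, the androgen-induced protein of the proximal tubule, had 10160, 10660 and 1038 CPM in the SETD2-KO libraries, against 19090, 18090 and 11860 CPM in the WT libraries, and Slc22a30, an organic anion transporter, had 68.1, 91.5 and 2.29 CPM in the SETD2-KO libraries, against 109, 136 and 95.1 CPM in the WT libraries. In both, SETD2-KO 2 lay just under WT 3 and SETD2-KO 3 far under all others. The log2 fold change of Kap was -0.66 ± 0.24 SE, or -1.17 ± 0.92 SE with SETD2-KO 3. That of Slc22a30 was -0.51 ± 0.20 SE, or -1.07 ± 1.03 SE with SETD2-KO 3. Cyp4a12a, a fatty acid hydroxylase of male kidney, had 101, 35.02 and 20.7 CPM in the SETD2-KO libraries, against 277, 178 and 58.97 CPM in the WT libraries, and its groups overlapped (log2 fold change -1.34 ± 0.65 SE). The Y-linked Uty had 30.7, 33.4 and 0 CPM in the SETD2-KO libraries, against 34.6, 43.8 and 36 CPM in the WT libraries, and the part of sex in the values of SETD2-KO 3 was not tested.

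The gene lists were then read as groups. They are 38 lists with 881 distinct genes, of which 830 were tested without SETD2-KO 3 and 826 with it. No list gene passed edgeR's adjusted test in any of the 3 fits, so each list is described by its count of genes whose groups did not overlap and its median, beside -0.01 for all genes without SETD2-KO 3 and 0.01 with it. The counts of genes apart are to be read against the shares over all genes, 6.16% on the higher side and 5.84% on the lower without SETD2-KO 3, and 3.51% and 2.79% with it.

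**Figure D3:**
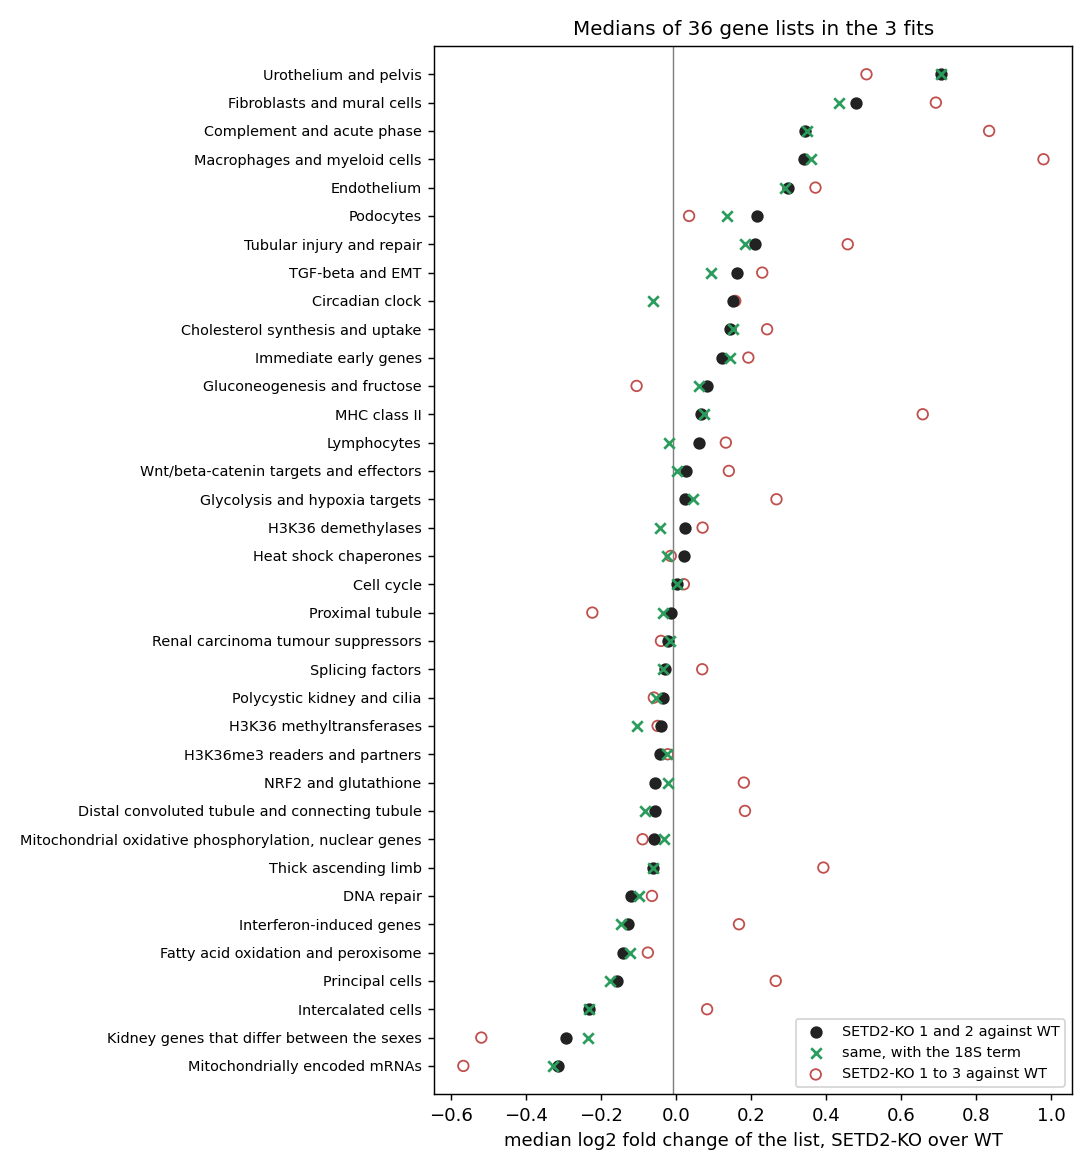
Median log2 fold change (SETD2-KO over WT) of 36 gene lists, 1 row per list, in the fit of SETD2-KO 1 and 2 (filled points), the same fit with the 18S term (crosses) and the fit of SETD2-KO 1 to 3 (open points). The grey line is the median of all genes without SETD2-KO 3, and the open points of macrophage, thick ascending limb and principal cell genes lie far from the filled ones.

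Genes of fibroblasts and mural cells stood above 0 throughout. All 22 tested members had a positive log2 fold change without SETD2-KO 3 and also with it, with medians of 0.48 and 0.69. Without SETD2-KO 3, 6 were apart from WT on the higher side (6.16% over all genes) and 0 on the lower (5.84%). Rgs5, a marker of pericytes, had 14.8, 15.2 and 29.6 CPM in the SETD2-KO libraries, against 10.4, 8.76 and 12.4 CPM in the WT libraries (log2 fold change 0.51 ± 0.18 SE, or 0.92 ± 0.32 SE with SETD2-KO 3). Myh11, the smooth muscle myosin, had 24.5, 24.4 and 35.95 CPM in the SETD2-KO libraries, against 15.2, 16.2 and 21.01 CPM in the WT libraries (0.48 ± 0.17 SE). Notch3, a receptor of mural cells, had 11.03, 9.36 and 20.02 CPM in the SETD2-KO libraries, against 7.39, 5.67 and 8.46 CPM in the WT libraries (0.49 ± 0.21 SE, or 0.91 ± 0.34 SE with SETD2-KO 3). In all 3 genes SETD2-KO 3 was the highest library and WT 3 the highest of the WT libraries. The members summed to 473, 399.5 and 639 CPM in SETD2-KO 1, 2 and 3, against 333, 252 and 376 CPM in WT 1, 2 and 3, so each SETD2-KO library was above each WT library.

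Markers of other cells that a tubule preparation can hold are given beside these. All 20 tested endothelial genes had a positive log2 fold change without SETD2-KO 3 (median 0.30), and none was apart from WT. They summed to 899.5, 1062 and 978 CPM in SETD2-KO 1, 2 and 3, against 607, 565 and 1212 CPM in WT 1, 2 and 3. SETD2-KO 2 and WT 3, the libraries with the high 18S row, were the highest of their groups. The podocyte genes summed to 1445, 1938 and 1032 CPM in SETD2-KO 1, 2 and 3, against 1142, 1216 and 1957 CPM in WT 1, 2 and 3, again highest in SETD2-KO 2 and WT 3. Macrophage genes had a median of 0.34 without SETD2-KO 3 and 0.98 with it, with 21 of 23 above 0 and 3 apart on the higher side (6.16% over all genes). Their sum was 89.3, 72.97 and 246 CPM in SETD2-KO 1, 2 and 3, against 54.99, 53.8 and 82.6 CPM in WT 1, 2 and 3, and SETD2-KO 3 held the most. Urothelial genes, with 7 tested and a median of 0.71 without SETD2-KO 3, summed to 16.1, 8.02 and 14.1 CPM in SETD2-KO 1, 2 and 3, against 4.76, 4.98 and 14 CPM in WT 1, 2 and 3, so the groups overlapped. Neither of the following defining markers was at 0: Pecam1 of endothelium and Ptprc of blood cells had at least 42.5 and 6.11 CPM in every library. The part of these cell types in the higher matrix and smooth muscle genes was not tested.

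Genes of complement and the acute phase had positive medians, the larger one with SETD2-KO 3 included. Without it, 17 of 20 tested members were above 0 and 5 were apart on the higher side (6.16% over all genes), with a median of 0.34. With it the median was 0.83. C3, the central complement component, had 12.9, 11.1 and 109 CPM in the SETD2-KO libraries, against 5.88, 3.55 and 8.99 CPM in the WT libraries (log2 fold change 0.94 ± 0.33 SE, or 2.85 ± 1.0002 SE with SETD2-KO 3). The fibrinogen chains Fga and Fgg had 27.8, 33.3 and 58.1 CPM in the SETD2-KO libraries, against 21.8, 22.4 and 27.7 CPM in the WT libraries, and 29.9, 25.7 and 39.3 CPM in the SETD2-KO libraries, against 25.5, 20.4 and 21.4 CPM in the WT libraries. For all 3 the lowest SETD2-KO library lay above the highest WT library, for the fibrinogen genes only by a small step, and C3 was many times higher in SETD2-KO 3 than in any other library.

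Most genes of cholesterol synthesis and uptake had small positive log2 fold changes, while their summed level overlapped between the groups. The pathway runs from acetyl-CoA through mevalonate, squalene and lanosterol to cholesterol, and SREBF2 switches its genes on when sterols are scarce. Of 25 members, 24 were above 0 without SETD2-KO 3 and 8 were apart on the higher side, against 6.16% of all genes (median 0.14). With SETD2-KO 3 the numbers were 18 and 5 (median 0.24), against 3.51% of all genes apart. The members summed to 2251, 2203 and 1810 CPM in SETD2-KO 1, 2 and 3, against 1981, 2231 and 2005 CPM in WT 1, 2 and 3, and SETD2-KO 3 was the lowest of the 6 libraries. Srebf2 itself had 68.7, 71.4 and 90.7 CPM in the SETD2-KO libraries, against 58.9, 55.5 and 63.3 CPM in the WT libraries (0.24 ± 0.12 SE, or 0.38 ± 0.14 SE with SETD2-KO 3), and Mvk, the mevalonate kinase, had 14.2, 12.1 and 10.95 CPM in the SETD2-KO libraries, against 10.7, 10.2 and 10.5 CPM in the WT libraries (0.32 ± 0.15 SE). Both were apart in all 6 libraries, although SETD2-KO 3 was close to WT 1 for Mvk. Sc4mol, a sterol oxidase also called Msmo1, had 61.7, 52.1 and 43.7 CPM in the SETD2-KO libraries, against 43.9, 47.9 and 41.4 CPM in the WT libraries (0.35 ± 0.13 SE). Its level was higher in SETD2-KO 1 and 2 than in WT, while SETD2-KO 3 lay just under WT 1.

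The segments of the tubule were next. Proximal tubule genes, the main content of the preparation, had a median log2 fold change of -0.01 over 41 genes without SETD2-KO 3, and 20 of them were above 0. The median with all 6 libraries was -0.22, and 6 were above 0. The sodium phosphate carrier Slc34a1 had 7009, 7399 and 1994 CPM in the SETD2-KO libraries, against 7791, 6164 and 6333 CPM in the WT libraries, and the endocytic receptor Lrp2 had 2570, 4035 and 2468 CPM in the SETD2-KO libraries, against 2781, 3094 and 3888 CPM in the WT libraries. The groups overlapped for both. The 41 genes summed to 49330, 53910 and 18500 CPM in SETD2-KO 1, 2 and 3, against 62680, 59730 and 53950 CPM in WT 1, 2 and 3. Each SETD2-KO sum lay below each WT sum, SETD2-KO 2 only just under WT 3, and SETD2-KO 3 held far less than the others. These sums include the androgen-induced Kap, with 10160, 10660 and 1038 CPM in the SETD2-KO libraries, against 19090, 18090 and 11860 CPM in the WT libraries. With Kap left out, SETD2-KO 2 would lie above WT 2 and WT 3, so the separation of the sums rests on that gene. Genes of the thick ascending limb summed to 6531, 5917 and 11040 CPM in SETD2-KO 1, 2 and 3, against 7793, 6042 and 6984 CPM in WT 1, 2 and 3, with the most in SETD2-KO 3.

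Collecting duct genes had medians below 0 without SETD2-KO 3 and above 0 with it. Of 16 intercalated cell genes, 7 were apart on the lower side and 1 on the higher, against 5.84% and 6.16% of all genes, with a median of -0.23. With SETD2-KO 3 in the fit the median was 0.08. Slc26a4, the pendrin exchanger of type B intercalated cells, had 47.6, 40.6 and 101 CPM in SETD2-KO 1, 2 and 3, against 63.1, 60.3 and 62.3 CPM in WT 1, 2 and 3 (log2 fold change -0.49 ± 0.13 SE, or 0.02 ± 0.34 SE with SETD2-KO 3). The proton pump subunit Atp6v1g3 had 32.1, 25.5 and 66.2 CPM in the SETD2-KO libraries, against 42.7, 40.1 and 35.1 CPM in the WT libraries, and the receptor Kit had 12.4, 11.4 and 23.7 CPM in the SETD2-KO libraries, against 15.6, 14.3 and 15.6 CPM in the WT libraries. In all 3 genes SETD2-KO 1 and 2 were the lowest libraries and SETD2-KO 3 the highest. Among 16 principal cell genes (median -0.16), Hsd11b2, which inactivates glucocorticoids, had 70.6, 60.1 and 99.2 CPM in the SETD2-KO libraries, against 119, 89.2 and 88.9 CPM in the WT libraries (-0.61 ± 0.17 SE, or -0.37 ± 0.23 SE with SETD2-KO 3), and the potassium channel subunit Kcne1 had 12.4, 12.1 and 19.8 CPM in the SETD2-KO libraries, against 17.4, 18.6 and 15.3 CPM in the WT libraries (-0.49 ± 0.15 SE, or -0.21 ± 0.24 SE with SETD2-KO 3). In the thick ascending limb list, Sostdc1, an antagonist of Wnt and BMP signals, had 43.1, 42.3 and 76.5 CPM in the SETD2-KO libraries, against 79.6, 59.8 and 68.5 CPM in the WT libraries (-0.70 ± 0.15 SE, or -0.36 ± 0.27 SE with SETD2-KO 3), and Slc12a1, the salt carrier of the thick ascending limb, had 285, 291 and 1712 CPM in the SETD2-KO libraries, against 388, 309 and 376 CPM in the WT libraries (-0.32 ± 0.15 SE, or 1.09 ± 0.74 SE with SETD2-KO 3). The same order held for these 4: SETD2-KO 1 and 2 lay below every WT library, while SETD2-KO 3 reached or passed the WT range. Slc14a2, the urea transporter of the inner medulla, had 4.14, 1.91 and 39.2 CPM in the SETD2-KO libraries, against 11.1, 10.6 and 5.10 CPM in the WT libraries (-1.57 ± 0.44 SE without SETD2-KO 3 and 0.75 ± 1.08 SE with it), and was chosen after its values had been seen.

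**Figure D4:**
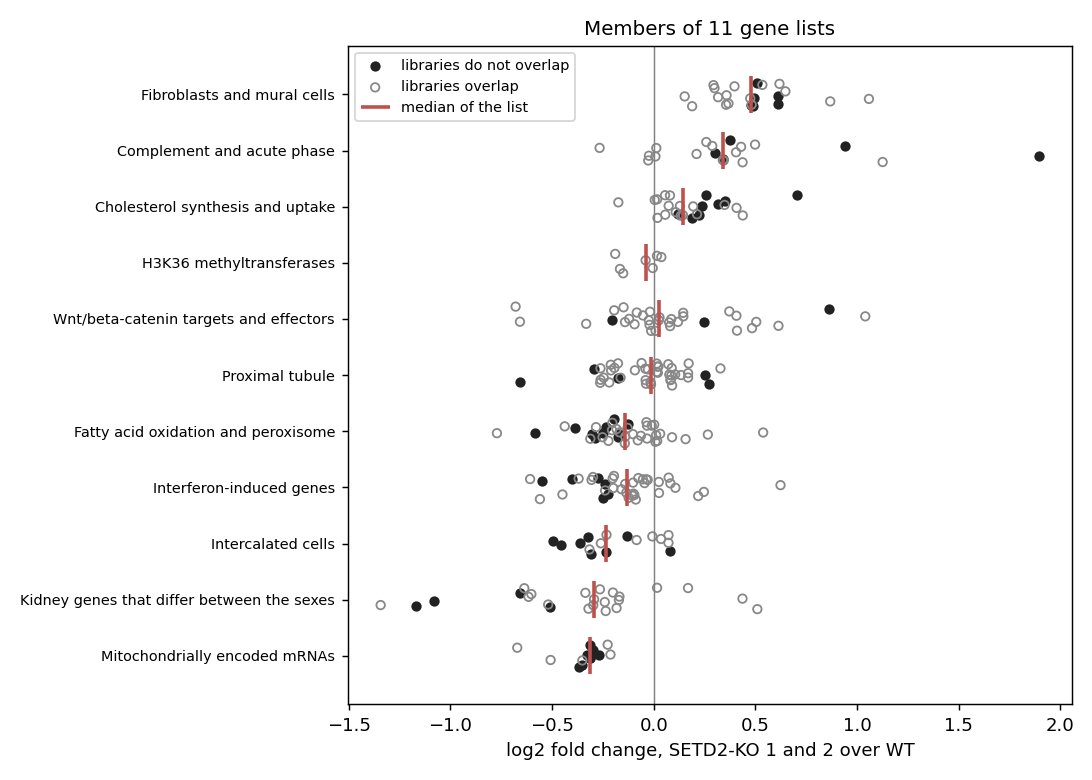
Log2 fold change of SETD2-KO 1 and 2 over WT (horizontal) for the members of 11 gene lists, 1 row per list, with filled points where the libraries of the groups did not overlap, open points where they did, and a red bar at the median. Fibroblast and mural genes all lie right of 0 and mitochondrially encoded mRNAs all lie left of it, while the methyltransferases of histone H3 lysine 36 lie near 0.

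All 13 mRNAs of the mitochondrial genome had a negative log2 fold change without SETD2-KO 3, with a median of -0.32, and 8 were apart on the lower side (5.84% over all genes). With all 6 libraries the median was -0.57, but 3 of the 13 were above 0. On the lower side 5 were then apart (2.79% over all genes). They summed to 197900, 211000 and 105100 CPM in SETD2-KO 1, 2 and 3, against 235100, 234900 and 268400 CPM in WT 1, 2 and 3. The sums of the SETD2-KO libraries were below those of all WT libraries, and SETD2-KO 3, which lacked the mitochondrial ribosomal RNA counts, held the least. COX2, a subunit of cytochrome c oxidase, had 87.1, 64.5 and 249.9 CPM in the SETD2-KO libraries, against 102, 93.9 and 95.5 CPM in the WT libraries (-0.36 ± 0.16 SE without SETD2-KO 3 and 0.46 ± 0.50 SE with it), and ND6, the complex I subunit on the other strand, had 633, 759.7 and 178 CPM in the SETD2-KO libraries, against 1478, 1207 and 626 CPM in the WT libraries (-0.67 ± 0.33 SE, or -1.08 ± 0.59 SE with SETD2-KO 3). Of these 2, COX2 was apart without SETD2-KO 3 and highest in it, and ND6 was lower in SETD2-KO 1 and 2 than in WT 1 and 2 and similar to WT 3. The 43 nuclear genes of oxidative phosphorylation had a median of -0.06, and none of them was apart.

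Enzymes of fatty acid oxidation and the peroxisome had a median of -0.14 over 39 members without SETD2-KO 3, with 10 apart on the lower side and 0 on the higher, against 5.84% and 6.16% of all genes. The median with all 6 libraries was -0.08. Acot12, a thioesterase, had 161, 156 and 115 CPM in the SETD2-KO libraries, against 182, 206 and 196 CPM in the WT libraries (-0.30 ± 0.13 SE). Ehhadh, the bifunctional enzyme of peroxisomal oxidation, had 475, 367 and 738 CPM in the SETD2-KO libraries, against 579.9, 579.5 and 484 CPM in the WT libraries (-0.39 ± 0.17 SE, or -0.06 ± 0.28 SE with SETD2-KO 3), and the peroxisomal oxidase Acox2 had 38.95, 65.4 and 203 CPM in the SETD2-KO libraries, against 72.96, 81.2 and 79.6 CPM in the WT libraries (-0.58 ± 0.21 SE, or 0.40 ± 0.58 SE with SETD2-KO 3). Acot12 was lowest in SETD2-KO 3, whereas Ehhadh and Acox2 were highest there.

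Interferon-induced genes had a median of -0.13 over 38 members without SETD2-KO 3, with 6 apart on the lower side and 0 on the higher, against 5.84% and 6.16% of all genes. With SETD2-KO 3 the median was 0.17. The immunity-related GTPase Igtp had 22.2, 30.7 and 57.9 CPM in the SETD2-KO libraries, against 40.99, 39.8 and 35.2 CPM in the WT libraries (-0.55 ± 0.17 SE, or -0.07 ± 0.35 SE with SETD2-KO 3), and its relative Irgm1 had 57.2, 84.99 and 117 CPM in the SETD2-KO libraries, against 95.7, 100.4 and 85.2 CPM in the WT libraries (-0.40 ± 0.19 SE, or -0.12 ± 0.26 SE with SETD2-KO 3). Iigp1, of the same family, had 16.03, 30.3 and 64.4 CPM in the SETD2-KO libraries, against 25.9, 32.8 and 35.9 CPM in the WT libraries (-0.45 ± 0.27 SE, or 0.22 ± 0.48 SE with SETD2-KO 3). In each of the 3, SETD2-KO 1 was the lowest library and SETD2-KO 3 the highest. These GTPases are close relatives, and how reads shared between relatives were counted is not known here.

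Among the immediate early genes, the transcription factor Fos had 4.82, 2.41 and 1.54 CPM in the SETD2-KO libraries, against 4.21, 26.4 and 3.29 CPM in the WT libraries, and Fosb had 0.659, 0.497 and 0.199 CPM in the SETD2-KO libraries, against 0.887, 12.4 and 0.218 CPM in the WT libraries. WT 2 was far above the other 5 libraries in both (-1.63 ± 0.89 SE and -2.92 ± 1.48 SE). The list of 31 had a median of 0.12, with 25 members above 0, so Fos, Fosb and Jun ran against most of it. On the higher side 2 members were apart, a share close to the 6.16% of all genes. Jun had 35, 38.7 and 25.1 CPM in the SETD2-KO libraries, against 42.4, 66.3 and 37.02 CPM in the WT libraries, with WT 2 again the highest.

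Among the gene groups closest to the function of SETD2, the one with the median farthest from 0 depended on the fit. It was DNA repair without SETD2-KO 3. With the 18S term it was the methyltransferases (-0.105, against -0.100 for DNA repair). With all 6 libraries, the demethylases and the splicing factors were farthest from 0 (both 0.07). The 7 methyltransferases of histone H3 lysine 36 had a median of -0.04 and none was apart, and the 6 demethylases had a median of 0.02 with 1 apart. The 20 readers and partners of the mark had a median of -0.04. Brpf1, a reader of the mark in a histone acetyltransferase complex, had 25.7, 28.3 and 23.3 CPM in the SETD2-KO libraries, against 20.5, 21.6 and 23.8 CPM in the WT libraries (0.29 ± 0.13 SE), and was apart only without SETD2-KO 3. The medians were -0.03 for 38 splicing factors, -0.12 for 38 DNA repair genes, 0.00 for 35 cell cycle genes and -0.02 for 17 tumour suppressors of renal carcinoma. Of the DNA repair genes, 10 were above 0, 1 was apart on the higher side and 2 on the lower, against 6.16% and 5.84% of all genes, and with SETD2-KO 3 the median was -0.07.

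Targets and effectors of Wnt and beta-catenin signalling had a median of 0.03 over 33 genes, with 2 apart on the higher side and 1 on the lower, shares no larger than the 6.16% and 5.84% of all genes. The median with all 6 libraries was 0.14. Axin2, a feedback target of the pathway, had 0.959, 1.47 and 1.15 CPM in the SETD2-KO libraries, against 0.624, 0.599 and 1.28 CPM in the WT libraries (0.50 ± 0.44 SE), and Ctnnb1, beta-catenin itself, had 159.6, 162 and 424 CPM in the SETD2-KO libraries, against 165, 141 and 150.2 CPM in the WT libraries (0.08 ± 0.13 SE, or 0.71 ± 0.40 SE with SETD2-KO 3). The groups overlapped for Axin2 and for Ctnnb1, and Ctnnb1 was far above the others in SETD2-KO 3. The 28 genes of polycystic kidney disease and cilia had a median of -0.04. Pkd1, polycystin 1, had 35.1, 38.2 and 48.9 CPM in the SETD2-KO libraries, against 28.02, 24.7 and 39.1 CPM in the WT libraries (0.25 ± 0.20 SE, or 0.41 ± 0.22 SE with SETD2-KO 3), and Pkhd1, fibrocystin, had 72.7, 94.8 and 205 CPM in the SETD2-KO libraries, against 88.03, 91.4 and 104 CPM in the WT libraries (-0.18 ± 0.16 SE, or 0.39 ± 0.38 SE with SETD2-KO 3). Ift88, a ciliary transport protein, had 21.8, 24.2 and 16.3 CPM in the SETD2-KO libraries, against 25.95, 27.2 and 26.3 CPM in the WT libraries (-0.21 ± 0.13 SE, or -0.35 ± 0.18 SE with SETD2-KO 3) and was the one of these 3 whose groups were apart.

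Genes of TGF-beta signalling and epithelial-mesenchymal transition had a median of 0.16 over 22 members, 18 of them above 0. The ligand Tgfb3 had 1.68, 1.89 and 2.84 CPM in the SETD2-KO libraries, against 0.788, 0.738 and 1.16 CPM in the WT libraries (0.97 ± 0.33 SE), and Itgb6, an integrin of epithelial cells that activates TGF-beta, had 110.3, 83.2 and 88.8 CPM in the SETD2-KO libraries, against 118, 147 and 118 CPM in the WT libraries (-0.40 ± 0.17 SE). Tgfb3 was apart on the higher side and Itgb6 on the lower, in all 6 libraries. Tubular injury and repair genes had a median of 0.21 over 28, with 2 apart on the higher side and 3 on the lower, against 6.16% and 5.84% of all genes. The median with all 6 libraries was 0.46. The injury marker Havcr1 had at most 0.689 CPM in SETD2-KO and at most 0.461 CPM in WT. Lcn2, which is released after injury, had 0.809, 0.472 and 6.72 CPM in the SETD2-KO libraries, against 1.02, 0.553 and 0.701 CPM in the WT libraries, and stood out in SETD2-KO 3 alone.

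SETD2 marks gene bodies, so the fold changes were also read by gene length. In 4 equal classes by genomic span, from the shortest to the longest, the median log2 fold change without SETD2-KO 3 was -0.02, 0.01, -0.02 and -0.01. The share of genes apart on the lower side was 4.2%, 5.25%, 6.89% and 6.93% over the same classes, and the share on the higher side was 5.71%, 7.73%, 6.22% and 4.66%. With SETD2-KO 3 the medians were -0.035, 0.004, -0.013 and 0.074, so the longest class had the highest. The shares on the lower side were then 2.09%, 2.53%, 3.36% and 3.16%, and those on the higher side 2.89%, 4.02%, 3.91% and 3.05%.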

How the data were processed

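The authors deposited raw counts of reads for each gene with its coordinates, per the file headers. Per the submitters' processing notes, GRCm38 and mm10 were the builds, and the tools included HISAT2, StringTie, Trimmomatic 0.35, cutadapt 1.9.1, FastQC and MACS2 2.1.1, with no role stated. Which program counted the reads, how it used strand and which annotation it read was not given in the sources used here.

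Groups were taken from the genotype labels. The members and gene lists were chosen with earlier results of these data known. Counts were filtered with filterByExpr, scaled by TMM factors and tested with edgeR's quasi-likelihood test (edgeR 4.0.16, R 4.3.3; Benjamini-Hochberg adjusted p under 0.05), for SETD2-KO 1 and 2 against WT 1 to 3 and for SETD2-KO 1 to 3 against WT 1 to 3. Standard errors are the log2 fold change over the square root of F. A further fit added a term for the 18S sets (18S row under or over 1000 CPM). CPM values are on TMM-scaled library sizes. Alternatives were DESeq2 1.42.0, limma-voom (limma 3.58.1), other scalings, no filter, each library left out, a replicate block and, with all 6 libraries, a fit of all 12. The scripts were tested on simulated data. All 897 list entries were found in the table by their symbol or an older one. Groups that are apart have no overlap in CPM. Named genes were the 12 higher and 12 lower with the smallest p under the criteria given in the text, Setd2, Cdh16, and from each list up to 4 members by p and defining markers, and some genes under these criteria are not reported here. Precision is limited by 3 libraries a group (2 without SETD2-KO 3), and the total count per library lay between 16657538 and 44227191. Of the symbols, 15364 had no count in the 6 libraries. No 2 libraries of a group agreed within sampling noise (smallest median chi-square 3.43, where noise gives 0.45).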

Additional observations from a re-analysis of the deposited data

How the results depend on the processing

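With all 6 libraries, the count of 0 higher and 0 lower became 4 higher and 2 lower by DESeq2, and 0 or 1 lower when a library was left out, with Atp6v0c-ps2, a pseudogene, called without SETD2-KO 2. Without SETD2-KO 3, no filter on low counts gave 12 higher and 52 lower, DESeq2 gave 3 lower (Spock3, Npy6r and Olfr1001-ps1, whose counts were all in WT 1), and leaving out a library gave 0 to 1 higher and 0 to 2 lower: 1 higher and 2 lower without SETD2-KO 2 (the lower ones Gm6197 and Atp6v0c-ps2) and 1 lower without WT 3 (Cd8a). The cause was not tested. With the replicate block, the pairing by number gave 0 higher and 1 lower (Cd8a). Deviations of same-numbered libraries correlated at 0.27, -0.002 and 0.14, and those of differently numbered ones between -0.397 and 0.26. The deviations are from group means that include SETD2-KO 3 and both 18S sets. They therefore cannot decide whether the numbers pair the libraries. The fit with the 18S term, added after seeing the data, gave 0 higher and 2 lower (Spock3 and Npy6r). The alternatives not named here gave 0 calls.

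Log2 fold changes without SETD2-KO 3 changed sign in 14 cases. With SETD2-KO 3 put back (added after seeing the data) they were -0.15 for Cdh16, 0.75 for Slc14a2, 0.22 for Iigp1, 0.40 for Acox2, 0.023 for Slc26a4, 0.068 for Atp6v1g3, 0.055 for Kit, 1.09 for Slc12a1, 0.46 for COX2 and 0.39 for Pkhd1. With 1 library left out, Setd2 ranged between -0.425 and 0.013 (without SETD2-KO 2 and without SETD2-KO 1), Cdh16 between -0.037 and 0.159 (without SETD2-KO 2 and without WT 1; -0.013 without WT 2) and Fosb between -3.498 and 0.079 (without WT 3 and without WT 2). In the fit of all 6 libraries, Cdh16 ranged between -0.339 and 0.062 (without SETD2-KO 2 and without SETD2-KO 3). The other 901 values of the genes chosen for description without SETD2-KO 3 kept their direction and their side of the threshold, and 21 passed it, of which 15 did so with no filter on low counts. The library of lowest depth, SETD2-KO 3, is also the one that stands apart, and with 2 SETD2-KO and 3 WT libraries left, the spread rests on few animals.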

Other observations

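Some genes were high or low in 1 or 2 libraries of a group. The pseudogene Atp6v0c-ps2 had 54, 1743 and 27 counts in SETD2-KO 1, 2 and 3, against 1748, 1110 and 1889 in WT 1, 2 and 3. Gm6197 followed the same libraries, with 0, 232 and 0 counts in SETD2-KO 1, 2 and 3 and 259, 175 and 233 in WT 1, 2 and 3. Pik3c2g, a lipid kinase, had 267, 484 and 107 counts in SETD2-KO 1, 2 and 3 and 293, 267 and 2949 in WT 1, 2 and 3. Olfr1001-ps1 had 167 counts in WT 1 and 0 in the other 5 libraries.

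Cd8a and Smyd1 were high in WT 1 and 2 and in no other library, while Igkc, a further gene of that stretch of chromosome 6, had 9.65, 5.71 and 0 CPM in SETD2-KO 1, 2 and 3 and 2.56, 4.43 and 5.75 CPM in WT 1, 2 and 3. Kdm4c, a histone demethylase, had 24.95 CPM in SETD2-KO 3 and 0 CPM in the other 5 libraries. It is 1 of the 283 genes, most of them overlapping another gene, that were at 10 CPM or more in SETD2-KO 3 alone. Aqp4, a water channel, had 180 CPM in SETD2-KO 3, against 4.10 to 6.46 CPM in the others.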
